A study of Mus musculus with 9 samples.

Results

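The Mas-related G protein receptors described here were 7 of the 18 genes of the family in a count table of 21536 genes: Mrgprd, Mrgpra1, Mrgpra3, Mrgprb4, Mrgprb5, Mrgprx1 and Mrgpre. They were chosen by name, and their neurons were chosen without using them. A barcode counted as a neuron when it held 500 to 7500 genes, had a unique molecular identifier (UMI, the tag that marks 1 captured transcript) for at least 3 of the neuronal genes Tubb3, Scn9a, Snap25, Nefl, Nefm and Uchl1, and had none for the epithelial gene Epcam. This left 3855 of 6997 barcodes. Of these, 1936 held 3000 or more UMIs and are called deep neurons below.

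The cells were dissociated from trigeminal ganglia, the sensory ganglia of the head, of wild-type FVB/N mice, aged 3 to 6 weeks by the labels and within a narrower range by the study's methods. Many animals were pooled, and glia were depleted before single-cell capture with Dropseq, a droplet method that counts the 3' ends of polyadenylated RNA. There was 1 group and no treatment. The 9 libraries were merged under barcodes that do not name their library, so the neurons are treated as 1 sample and no test between groups was possible.

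Mas-related receptors are a family of G protein-coupled receptors expressed largely in small-diameter sensory neurons, many of which signal itch or pain. Several of them couple through Gq proteins and phospholipase C beta, and different members answer different ligands: Mrgprd is the receptor for beta-alanine, Mrgpra3 for chloroquine, and Mrgprx1, also called Mrgprc11, for BAM peptides. Mrgprd is the classic marker of non-peptidergic nociceptors, Mrgprb4 marks a rare class of touch-sensitive unmyelinated fibres, and Mrgpre has no settled ligand.

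Uchl1 was seen in 97% of the selected neurons, Nefl in 96.2%, Tubb3 in 92.5% and the sodium channel gene Scn9a in 76.5%; the selection itself used these genes, so their shares do not test the label. Of neuronal genes that it did not use, Tac1, which encodes substance P, was seen in 66.7% and Calca, which encodes the neuropeptide CGRP, in 61%. The glial gene Mbp, which encodes a myelin protein, was seen in 24.7% of the neurons, and the pituitary gene Gh, which encodes growth hormone, in 43.1%. The median neuron held 3014 UMIs, with quartiles of 1744 and 6047 and a range of 1000 to 55655, and the median deep neuron held 6025.

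All 7 genes lie on chromosome 7. In RefSeq positions of the mouse assembly GRCm38.p6, Mrgpra1 (chr7:47334875-47354240), Mrgpra3 (chr7:47588950-47601372), Mrgprx1 (chr7:48020971-48027597), Mrgprb5 (chr7:48168017-48168985) and Mrgprb4 (chr7:48198213-48199178) fall within 864.3 kb that hold 16 family genes. Mrgpre (chr7:143778363-143784500) and Mrgprd (chr7:145314835-145324059) lie far from this cluster. Mrgprb5 and Mrgprb4 are neighbours, 29.2 kb apart.

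The windows around the annotated starts are shown for the receptors most often seen together, Mrgprd, Mrgpra1 and Mrgprb5, and for Mrgprb4, the close copy of Mrgprb5. Each runs from 250 bases before to 50 bases after the RefSeq start, on the strand of the gene. The windows lie at chr7:145314585-145314884 (plus strand) for Mrgprd, chr7:47354191-47354490 (minus) for Mrgpra1, chr7:48168936-48169235 (minus) for Mrgprb5 and chr7:48199129-48199428 (minus) for Mrgprb4. In the Mrgpra1 window the capitals mark a RUNX core motif; in the Mrgprb5 and Mrgprb4 windows they mark the bases at which the pair differs in their alignment.
Mrgprd: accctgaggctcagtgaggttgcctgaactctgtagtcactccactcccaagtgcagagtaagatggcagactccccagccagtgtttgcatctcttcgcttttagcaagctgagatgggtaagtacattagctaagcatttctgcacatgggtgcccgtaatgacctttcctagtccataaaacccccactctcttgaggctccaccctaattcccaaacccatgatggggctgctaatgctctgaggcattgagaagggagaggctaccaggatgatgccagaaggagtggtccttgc
Mrgpra1: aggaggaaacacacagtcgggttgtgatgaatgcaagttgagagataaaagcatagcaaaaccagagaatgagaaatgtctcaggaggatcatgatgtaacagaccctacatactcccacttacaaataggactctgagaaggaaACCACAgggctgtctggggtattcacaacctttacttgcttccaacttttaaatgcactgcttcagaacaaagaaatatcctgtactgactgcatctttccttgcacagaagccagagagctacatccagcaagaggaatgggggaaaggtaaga
Mrgprb5: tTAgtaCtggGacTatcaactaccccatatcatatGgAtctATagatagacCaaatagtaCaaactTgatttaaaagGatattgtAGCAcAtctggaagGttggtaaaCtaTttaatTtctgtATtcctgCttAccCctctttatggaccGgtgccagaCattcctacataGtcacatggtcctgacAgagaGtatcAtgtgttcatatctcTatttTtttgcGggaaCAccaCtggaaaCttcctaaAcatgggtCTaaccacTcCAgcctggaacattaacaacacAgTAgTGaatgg
Mrgprb4: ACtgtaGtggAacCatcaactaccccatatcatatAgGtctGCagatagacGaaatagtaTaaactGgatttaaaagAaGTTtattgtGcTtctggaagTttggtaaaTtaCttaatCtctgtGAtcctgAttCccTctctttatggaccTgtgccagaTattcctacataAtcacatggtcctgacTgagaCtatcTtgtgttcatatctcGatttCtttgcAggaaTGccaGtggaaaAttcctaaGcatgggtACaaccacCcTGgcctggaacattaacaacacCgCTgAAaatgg

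RefSeq held such a window for 6 of the 7 receptors, Mrgpra3 being the exception. The Mrgprb5 and Mrgprb4 windows were identical at 249 of 295 aligned bases (84.4%). The RefSeq models of both genes begin at the coding start, so the last 50 bases of these windows are coding sequence, and the windows need not lie at the transcription start; the GENCODE transcripts of both genes begin further upstream. The RUNX core TGTGGT, searched on both strands because Runx1 is known for its role in this neuron class, was found in 16.8% of 32851 windows of the same length. Among the 6 receptor windows it was found in that of Mrgpra1, at bases -105 to -100 from the start, where it reads ACCACA on the strand shown. The TATA box TATAAA was found in 13.6% of all windows and, of these 6, in that of Mrgprb4, at bases -192 to -187.

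Because Dropseq reads the 3' end, similar transcript ends can share reads. Over the last 500 bases of the transcript, Mrgprb5 matched Mrgprb4 at 84.9% of 498 aligned bases, with 57 as the longest identical run. Mrgpra1 matched Mrgpra6 at 88.3% of 496 bases, Mrgpra3 matched Mrgpra2a at 83.3% of 455 and Mrgprx1 matched the pseudogene Mrgprc3-ps at 90.8% of 433. Mrgprd had no match of this kind, and the nearest to Mrgpre was Glp2r at 70.1% of 221 bases. The counts of Mrgpra1, Mrgpra3, Mrgprb4, Mrgprb5 and Mrgprx1 are uncertain to the extent that reads were split with these relatives.

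Mrgprd was the receptor seen in most neurons. It had a UMI in 526 of 3855 neurons (13.6%, 95% interval 12.6 to 14.8%) and in 338 of the 1936 deep neurons (17.5%, 15.8 to 19.2%). Intervals on shares are exact binomial intervals and those on levels are exact Poisson intervals, and all cover counting error only. Where no neuron held a UMI, the limit given is instead 3 neurons of the total, and it bounds neurons with a UMI, not neurons that express the gene. The summed level of Mrgprd over all neurons was 114 CPM (109 to 119), where CPM is the count per 1000000 UMIs, and a neuron with the gene held a median of 3 UMIs and at most 45.

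The other receptors followed in the order Mrgpre, Mrgpra1, Mrgprb5, Mrgpra3, Mrgprx1 and Mrgprb4 by the share of neurons with a UMI. Mrgpre was seen in 282 neurons (7.32%), and 88.7% of these held a single UMI of it. Mrgpra1 was seen in 197 (5.11%) and Mrgprb5 in 134 (3.48%), with single UMIs in 75.1% and 62.7% of their neurons. Mrgpra3 was rarer, in 60 neurons (1.56%), yet when present it had a median of 3 UMIs and reached 43. Mrgprx1 was seen in 35 neurons (0.908%), never above 3 UMIs, and Mrgprb4 in 2 neurons with 3 UMIs in all. The intervals of Mrgpra3 and Mrgprx1 overlapped, and no other neighbours in this order did.

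**Figure D1:**
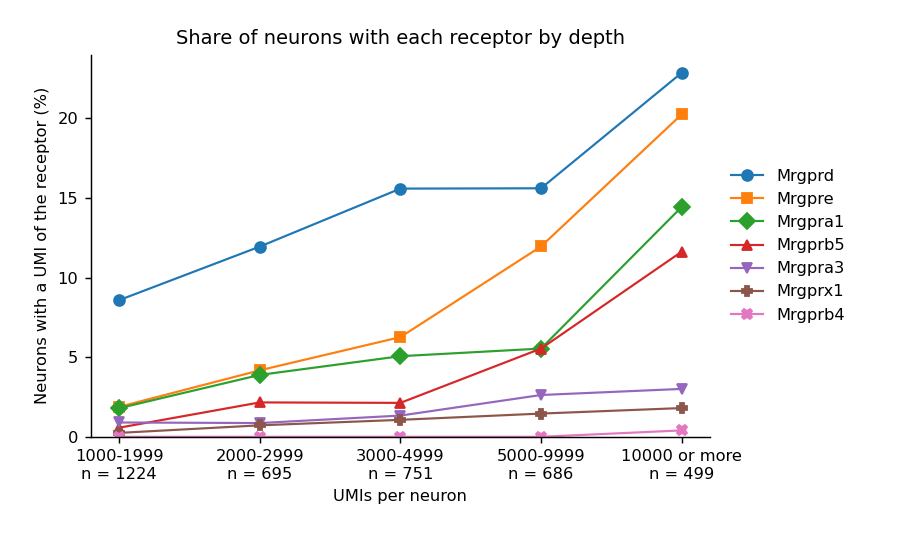
Share of neurons with a UMI of each receptor (vertical axis, percent) in 5 classes of UMIs per neuron (horizontal axis), 1 line per receptor, with the number of neurons under each class. Mrgprd rises from 8.58% to 22.8% between the shallowest and the deepest class and Mrgprb5 from 0.572% to 11.6%, so the receptors differ in how far their detection moves with depth.

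Every receptor was seen more often in the deepest class of neurons than in the shallowest, as the plot of share by depth class shows. Mrgprd was seen in 8.58% of the 1224 neurons with 1000 to under 2000 UMIs and in 22.8% of the 499 with 10000 or more. Over the same classes Mrgpra1 went from 1.80% to 14.4%, Mrgpre from 1.88% to 20.2% and Mrgprb5 from 0.572% to 11.6%. Both neurons with Mrgprb4 were in the deepest class. Shares are therefore given below for deep neurons and, where receptors with different depths are set side by side, also after each deep neuron was thinned to 3000 UMIs drawn at random.

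In cells that should lack these receptors few UMIs of them were seen, though these barcodes were shallow. Other cells were taken as barcodes with at most 1 of the 6 neuronal genes and at least 2 listed markers of their type. Of 252 glial barcodes, at a median of 1428 UMIs, 4 held a UMI of any of the 7 receptors (1.59%). Of these 1 held Mrgprd, 1 Mrgpra3 and 2 Mrgpre. Of 344 erythroid barcodes, at a median of 1390 UMIs, 1 held any (0.291%). Neurons with 1000 to under 2000 UMIs held Mrgprd in 8.58%, Mrgpre in 1.88%, Mrgpra3 in 0.899%, Mrgprb5 in 0.572% and Mrgprx1 in 0.245%. The glial counts allow up to 2.19%, 2.84%, 2.19%, 1.19% and 1.19%. Against glia of similar depth the difference was thus clear for Mrgprd and not resolved for these other receptors. Calca behaved differently. It was seen in 11.1% of the glial and 11.3% of the erythroid barcodes, and its summed level in the glial barcodes was 70.8 CPM.

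Receptors of the family were often seen together. At least 1 of the 7 had a UMI in 875 neurons (22.7%, 21.4 to 24.1%), and 270 of these (30.9%, 27.8 to 34.0%) held 2 or more. Among deep neurons 591 held at least 1 (30.5%) and 224 of these (37.9%, 34.0 to 42%) held 2 or more, with 152 holding 2, 60 holding 3, 11 holding 4 and 1 holding 5. Leaving out Mrgpre, 198 of 417 deep neurons with a receptor held 2 or more (47.5%).

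The number of receptors per neuron moved with depth. Neurons with no receptor had a median of 2670 UMIs, those with 1 had 4090, those with 2 had 5877 and the 77 with 3 or more had 13928. No doublet caller was run, and the part of merged cells in these counts was not tested. With every deep neuron thinned to 3000 UMIs, 418 held a receptor (21.6%) and 117 of these (28.0%) held 2 or more. With all neurons thinned to 1000 UMIs the counts were 429 (11.1%) and 50 (11.7%). The most common states in deep neurons, unthinned, were Mrgpre alone in 174, Mrgprd alone in 139, Mrgprd with Mrgpra1 in 55, Mrgprd with Mrgprb5 in 53 and all of Mrgprd, Mrgpra1 and Mrgprb5 in 31.

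Mrgprb5 was seen almost entirely in neurons that also held Mrgprd. The pair was seen in 105 deep neurons, which are 93.8% of the 112 with Mrgprb5 (87.6 to 97.4%) and 31.1% of the 338 with Mrgprd. Of deep neurons without Mrgprb5, 12.8% held Mrgprd. At all depths the pair was seen in 120 neurons, and after thinning to 3000 UMIs Mrgprd was seen in 42 of 51 Mrgprb5 neurons (82.4%). The overlap did not rest on single UMIs: Mrgprd was seen in 63 of 65 deep neurons with 1 Mrgprb5 UMI and in 42 of 47 with 2 or more.

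Mrgpra1 was seen with Mrgprd in most of its neurons. The pair was seen in 110 deep neurons, which are 74.3% of the 148 with Mrgpra1 (66.5 to 81.2%) and 32.5% of those with Mrgprd, and in 139 neurons at all depths. After thinning, Mrgprd was seen in 51 of 74 Mrgpra1 neurons (68.9%). Mrgprd was seen in 78 of 106 deep neurons with 1 Mrgpra1 UMI (73.6%) and in 32 of 42 with 2 or more (76.2%), so the share stayed in the same range. Mrgpra1 and Mrgprb5 met in 41 deep neurons, 36.6% of those with Mrgprb5 and 27.7% of those with Mrgpra1. Mrgprb5 was seen in 3.97% of deep neurons without Mrgpra1. After thinning this pair met in 8 neurons, 15.7% of the 51 with Mrgprb5 and 10.8% of the 74 with Mrgpra1.

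Within the 338 deep Mrgprd neurons, Mrgpra1 and Mrgprb5 divided the cells into 70 with Mrgpra1 of the pair, 65 with Mrgprb5, 40 with both and 163 with neither. Mrgpra1 was seen in 38.1% of those with Mrgprb5 and in 30% of the 233 without. The median depth was 5152 UMIs in the neurons with neither and 15109.5 in those with both, and the part of depth in this division was not tested. The level of Mrgprd itself was 544 CPM with neither, 571 CPM with Mrgpra1, 693 CPM with Mrgprb5 and 632 CPM with both.

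**Figure D2:**
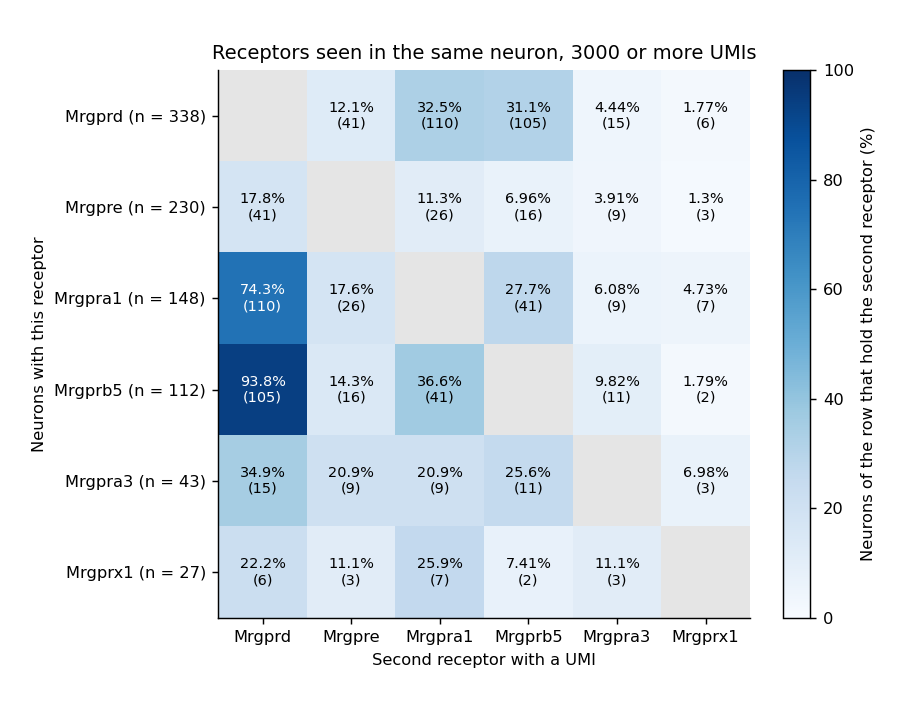
Deep neurons with the receptor of each row that also held the receptor of each column, as a percent of the row's neurons (colour) with the number of neurons seen with both. The Mrgprb5 and Mrgpra1 rows reach 93.8% and 74.3% in the Mrgprd column, and the Mrgpre row stays at 17.8% there.

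Mrgpra3 was seen with Mrgprd less completely. Mrgprd had a UMI in 15 of 43 deep Mrgpra3 neurons (34.9%, 21 to 50.9%), against 17.1% of deep neurons without Mrgpra3, and in 12 of the 31 with 2 or more Mrgpra3 UMIs (38.7%). After thinning it was seen in 7 of 31 Mrgpra3 neurons (22.6%) and in 14.1% of the others, a difference that 7 neurons do not resolve. In deep neurons with 2 or more Mrgpra3 UMIs that held Mrgprd, the median was 2 Mrgprd UMIs, against 8 in those with 2 or more Mrgprb5 UMIs. Mrgprb5 was seen in 11 of the 43 (25.6%) and Mrgpra1 in 9 (20.9%), against 5.34% and 7.34% of deep neurons without Mrgpra3. After thinning they were seen in 5 (16.1%) and 3 (9.68%) of the 31, against 2.42% and 3.73% of the others. Each of these overlaps rested on few neurons.

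Mrgprx1 met Mrgprd in 6 of its 27 deep neurons (22.2%), Mrgpra1 in 7 (25.9%), Mrgpra3 in 3 and Mrgprb5 in 2. Mrgpra1 was seen in 7.39% of deep neurons without Mrgprx1, and after thinning Mrgpra1 and Mrgprd were each seen in 1 of 13 Mrgprx1 neurons. Mrgpre met Mrgprd in 41 of its 230 deep neurons (17.8%, 13.1 to 23.4%), and Mrgprd was seen in 17.4% of deep neurons without Mrgpre. After thinning the shares were 13.3% with Mrgpre and 14.2% without, so Mrgprd was about as frequent in Mrgpre neurons as in the others.

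The 2 neurons with Mrgprb4 can be given in full. The first held 14005 UMIs, of which 2 were Mrgprb4, 15 Mrgpra3, 6 Mrgprd, 17 Scn11a and 35 Calca. The second held 28947 UMIs, of which 1 was Mrgprb4, 7 Mrgprb5, 15 Mrgprd, 30 Scn11a, 14 Calca and 1 Trpv1. Mrgprd was thus present in both.

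Relatives outside the 7 receptors were set against them, and of those given here only Mrgprx3-ps was seen in more than 28 deep neurons. The pseudogene Mrgprx3-ps was seen in 101 deep neurons, of which 67 held Mrgprd (66.3%), 34 Mrgprb5 (33.7%) and 31 Mrgpra1 (30.7%), against 14.8%, 4.25% and 6.38% of deep neurons without it. Mrgpra3, Mrgprx1 and Mrgpre lay nearer the other neurons, at 2.97% against 2.18%, 0.99% against 1.42% and 13.9% against 11.8%. Mrgprf was seen in 28 deep neurons, of which 8 held Mrgprd (28.6%), 5 Mrgpre (17.9%) and 0 Mrgpra3. In deep neurons without Mrgprf the shares were 17.3%, 11.8% and 2.25%, and 28 neurons do not resolve a difference. Mas1 was seen in 8, of which 1 held Mrgpre and 0 any other of the 7. Mrgprd was seen in 17.5% of deep neurons without Mas1, and 8 neurons are too few to show a difference. Mrgpra4 was seen in 22 deep neurons, of which 10 held Mrgpra3 (45.5%, 24.4 to 67.8%), against 1.72% of those without it. Mrgprd was seen in 36.4% and Mrgpra1 in 31.8% of the 22, against 17.2% and 7.37%. The last 500 bases of Mrgpra4 matched Mrgpra3 at 87.2% of 500 bases, with an identical run of 67. Where in Mrgpra3 this match lies was not recorded, and the closest to the end of Mrgpra3 itself was Mrgpra2a. The part of shared reads in the overlap of Mrgpra4 and Mrgpra3 neurons was not tested.

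The status of each receptor's neurons was read from 4 genes. Scn11a encodes the Nav1.9 sodium channel of nociceptors, Calca encodes CGRP and is the usual marker of peptidergic neurons, Nppb encodes a neuropeptide of itch neurons, and Trpv1 encodes the channel opened by heat and capsaicin. A neuron was counted as positive for a gene when it held at least 1 UMI of it. Where shares with a gene are given among receptor neurons after thinning, the receptor was read before thinning and the gene after it, unless stated. In the pair shares above both receptors were read after thinning.

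**Figure D3:**
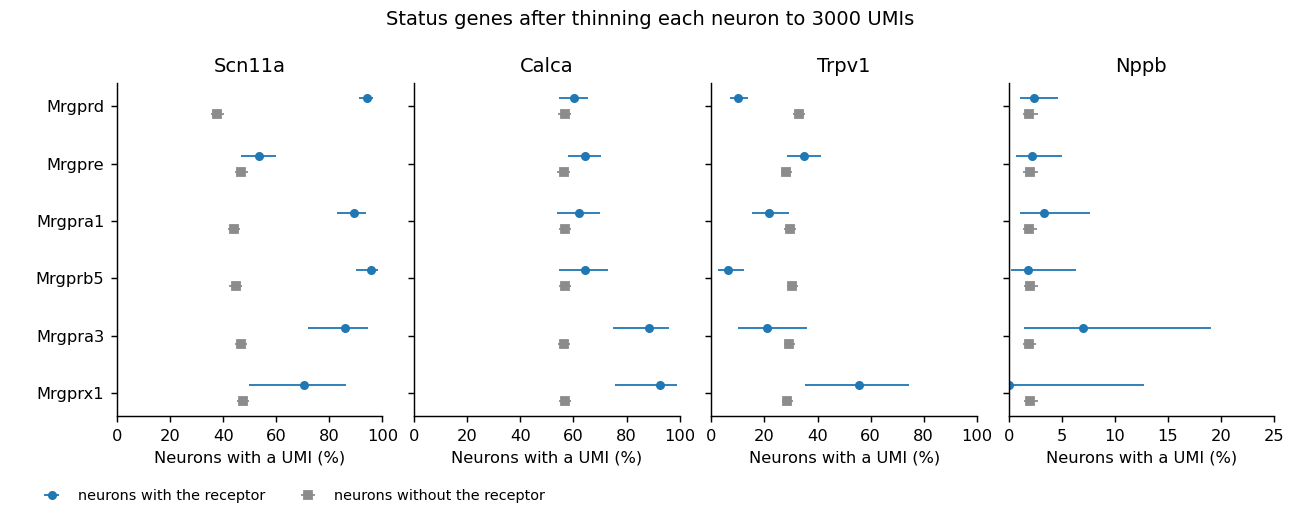
Share of deep neurons with a UMI of Scn11a, Calca, Nppb and Trpv1, in percent, with each neuron thinned to 3000 UMIs. Neurons with each receptor, read before thinning, are set beside those without it. Lines are exact 95% binomial intervals, and the Nppb axis ends at 25%. Scn11a reaches 94.1% with Mrgprd against 37.8% without, and Trpv1 reaches 55.6% with Mrgprx1 but 10.1% with Mrgprd.

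Scn11a was seen in nearly every neuron with Mrgprd, Mrgprb5 or Mrgpra1. Of deep Mrgprd neurons 334 of 338 held it (98.8%), against 53.3% of deep neurons without Mrgprd, and after thinning the shares were 94.1% (91.0 to 96.4%) and 37.8%. Its summed level was 1097 CPM in neurons with Mrgprd and 199 CPM in those without. After thinning, Scn11a was seen in 95.5% of Mrgprb5 neurons, 89.2% of Mrgpra1, 86.0% of Mrgpra3, 70.4% of Mrgprx1 and 53.5% of Mrgpre neurons; unthinned, these shares were 99.1%, 99.3%, 93.0%, 92.6% and 73.0%. Among the receptors listed here Mrgpre neurons thus least often held a Scn11a UMI. They held one no less often than neurons without Mrgpre, at 46.8% thinned and 59.7% unthinned.

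Read from the other side, the 750 deep neurons with no Scn11a UMI held Mrgprd in 4 (0.533%), Mrgprb5 in 1, Mrgpra1 in 1, Mrgpra3 in 3 and Mrgprx1 in 2. Mrgpre was seen in 62 of them (8.27%). In the 1186 deep neurons with Scn11a, Mrgprd was seen in 334 (28.2%) and Mrgpre in 168 (14.2%). The level of Mrgprd was 0.858 CPM without Scn11a, and that of Mrgpre was 11.7 CPM without Scn11a and 17.0 CPM with it.

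Calca gave different pictures by share and by level, and the order of its shares depended on depth. It was seen in 265 of 338 deep Mrgprd neurons (78.4%) and in 65.1% of those without Mrgprd, and after thinning in 60.1% (54.6 to 65.3%) and 56.7%. With all neurons thinned to 1000 UMIs the order turned, to 32.7% (28.7 to 36.9%) with Mrgprd and 50.2% (48.5 to 51.9%) without, and it turned in the same way for Mrgprb5 (37.3% and 48.2%) and Mrgpra1 (41.1% and 48.2%). Its summed level was 816 CPM in Mrgprd neurons and 4598 CPM in the others. A Calca UMI was also seen in 11.1% of the shallower glial barcodes, so levels and counts per neuron are given below.

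By level, Calca stood lowest in Mrgprb5 neurons, at 553 CPM against 4198 CPM in neurons without Mrgprb5. It was 2390 CPM in Mrgpra1 neurons, 3784 CPM in Mrgpra3 neurons and 4280 CPM in Mrgpre neurons, against 4046, 3864 and 3773 CPM in neurons without each. In Mrgprx1 neurons it was 10720 CPM against 3769 CPM without. The near-equal sums for Mrgpra3 hid different distributions: its neurons held a median of 32 Calca UMIs against 2 in the others, and 83.7% against 44.2% held 5 or more. After thinning Calca was seen in 88.4% of Mrgpra3 neurons (74.9 to 96.1%) and in 56.6% of the others. By summed level, Mrgprx1 neurons thus held the most Calca of the 6 receptors, and those with Mrgprd and Mrgprb5 the least.

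Trpv1 gave a similar order, with Mrgpra3 and Mrgpra1 next to each other. After thinning it was seen in 6.25% of Mrgprb5 neurons (2.55 to 12.4%), 10.1% of Mrgprd neurons (7.07 to 13.8%), 20.9% of Mrgpra3 neurons, 21.6% of Mrgpra1 neurons (15.3 to 29.1%), 34.8% of Mrgpre neurons and 55.6% of Mrgprx1 neurons (35.3 to 74.5%). In neurons without each receptor the shares lay between 28.2% and 33.0%. The summed level was 19.9 CPM in Mrgprb5 neurons, 48.3 CPM in Mrgprd neurons and 398 CPM in Mrgprx1 neurons.

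Nppb was rare with every receptor. It was seen in 13 of 338 deep Mrgprd neurons (3.85%) and in 2.75% of the others, in 10 Mrgpra1 neurons (6.76%), in 3 of 43 Mrgpra3 neurons and in 0 of 27 Mrgprx1 neurons, which allows a share with a UMI of up to 11.1%. Among the 57 deep neurons with Nppb, Mrgprd was seen in 13 (22.8%), Mrgpre in 11 (19.3%) and Mrgpra1 in 10 (17.5%). Of the 37 with 2 or more Nppb UMIs, 7 held Mrgprd (18.9%). In deep neurons without Nppb these receptors were seen in 17.3% (Mrgprd), 11.7% (Mrgpre) and 7.34% (Mrgpra1). With each deep neuron thinned to 3000 UMIs, Nppb was seen in 3.38% of Mrgpra1 neurons (1.11 to 7.71%) and 1.90% of the others. For Mrgprd these shares were 2.37% and 1.94%, so no difference was resolved after thinning.

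**Figure D4:**
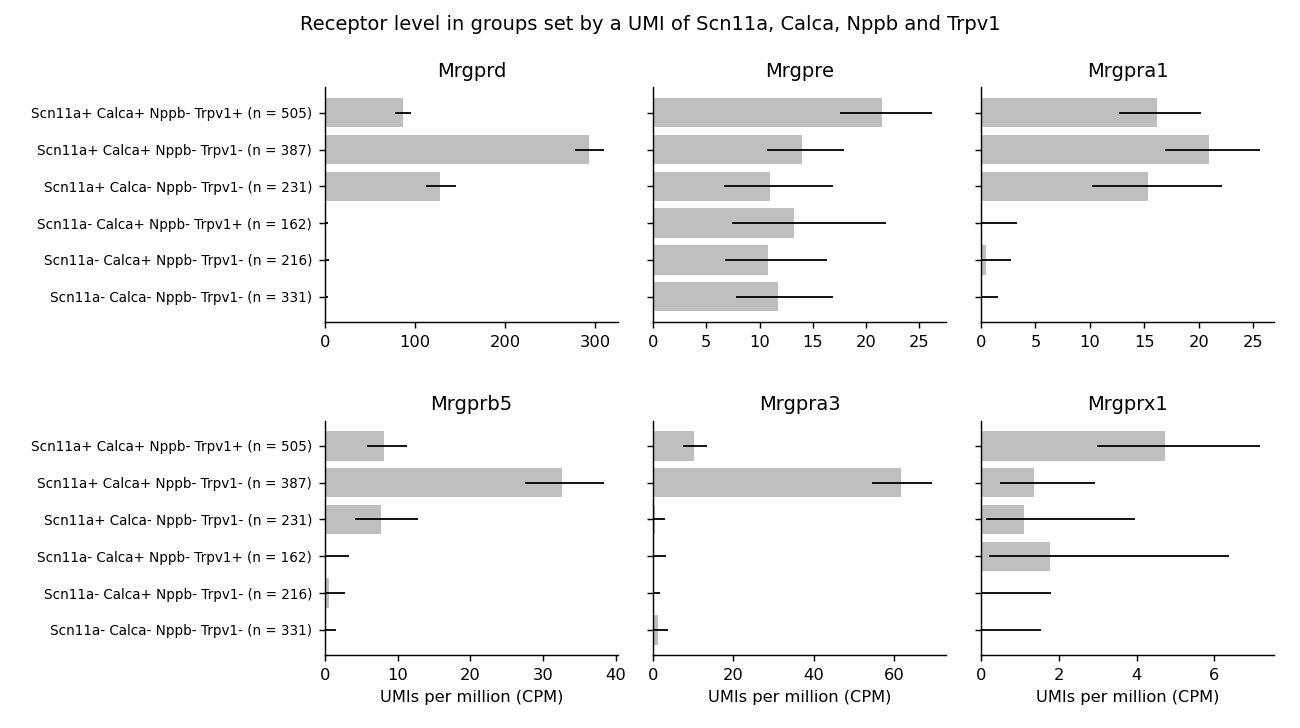
Summed level of each receptor (bars, CPM on a linear axis whose range differs between panels, with exact 95% Poisson intervals as lines) in the groups of 100 or more deep neurons formed by Scn11a, Calca, Nppb and Trpv1 status. Mrgprd is at 293 CPM in the group with Scn11a and Calca alone and at or under 1.47 CPM in the groups without Scn11a.

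Among groups of 100 or more neurons formed by the 4 genes, Mrgprd was highest in the 387 deep neurons with Scn11a and Calca but neither Nppb nor Trpv1, at 293 CPM (278 to 310), with a UMI in 50.4% of them. In the 231 neurons with Scn11a alone it was 128 CPM, and in the 505 with Scn11a, Calca and Trpv1 it was 86.3 CPM. With neurons holding Mbp left out, the first and second of these levels were 399.7 and 277 CPM. The part of glial RNA in them was not tested. With all neurons kept, the median depths of the groups, in the order given, were 7382, 5729 and 6602 UMIs. The part of depth in the split by Calca was not tested. Mrgprb5 was also highest in the first of these groups of 100 or more, at 32.6 CPM against 7.67 and 8.18 CPM in the next, as was Mrgpra3, at 61.7 CPM against 0.548 and 10.1 CPM. Mrgpra1 was more even, at 20.9, 15.3 and 16.2 CPM. Among the same groups Mrgprx1 was instead highest in the Trpv1 group, at 4.74 CPM against 1.35 CPM with Scn11a and Calca alone. Mrgpre moved least, between 10.8 and 21.5 CPM over these groups and those of that size without Scn11a.

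Counted by neuron, 195 of 338 deep Mrgprd neurons (57.7%) held Scn11a and Calca alone of the 4 genes, 62 (18.3%) Scn11a alone and 59 (17.5%) Scn11a, Calca and Trpv1. Of 27 deep Mrgprx1 neurons, 18 (66.7%) held Scn11a, Calca and Trpv1. Of 230 deep Mrgpre neurons, 83 (36.1%) held these 3 and 25 (10.9%) held none of the 4.

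Genes known for the classes of sensory neuron and for the signalling of these receptors were then read from fixed lists. Level ratios between deep neurons with and without each receptor were taken for genes at 50 CPM or more on average, and a gene is called higher or lower past 2-fold; with 1 sample this is a rule of size, not a test. Over all 4043 genes read for Mrgprd, 4.65% were called higher and 7.57% lower. The corresponding percentages were 4.03 and 7.37 for Mrgprb5, 2.65 and 4.28 for Mrgpra1, 2.79 and 7.34 for Mrgpra3, 0.915 and 4.85 for Mrgprx1, and 0 and 0.346 for Mrgpre.

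Of the 9 genes read from the list for non-peptidergic nociceptors, 7 reached 50 CPM. All 7 were higher in neurons with Mrgprd and in those with Mrgprb5, 6 with Mrgpra1, 3 with Mrgpra3, and 0 with Mrgprx1 or Mrgpre. With Mrgprx1, Gfra2 and Lpar3 were lower. The median log2 ratio of the list was 2.22 for Mrgprd, 1.87 for Mrgprb5, 1.54 for Mrgpra1, 0.73 for Mrgpra3, 0.17 for Mrgprx1 and 0.07 for Mrgpre, and over all genes read it lay between -0.09 and 0.02. Lpar3, a lysophosphatidic acid receptor, was at 417 CPM with Mrgprd and 12 CPM without, and seen after thinning in 61.5% and 3.50% of neurons.

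Mrgpra3 divided this list. In its neurons Scn10a, Plcb3 and Acpp were higher, while Gfra2, Runx1 and Lpar3 were lower. Lpar3 was seen after thinning in 2.33% of Mrgpra3 neurons and in 13.9% of the others, and Gfra2, a receptor for neurturin, in 4.65% and 17.1%. Gfra1, the receptor for GDNF, was at 292 CPM with Mrgpra3 and 32.7 CPM without.

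Of the 5 peptidergic genes read, 4 reached 50 CPM. Tac1, Adcyap1 and Gal, which encode neuropeptides, were lower with Mrgprd, Mrgprb5, Mrgpra1 and Mrgpra3. The fourth, Calcb, which encodes a second form of CGRP, stood on the other side of 1 but within 2-fold: its ratio was 1.97 with Mrgprd (773 against 392 CPM), 1.83 with Mrgprb5, 1.54 with Mrgpra1 and 1.45 with Mrgpra3. In Mrgprd neurons Adcyap1 was at 23.0 CPM and Gal at 7.37 CPM, against 312 and 345 CPM in the others. In Mrgprx1 neurons Tac1 and Adcyap1 were higher: Tac1 was at 4862 CPM against 2388 CPM without. No peptidergic gene was called for Mrgpre.

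Of the 22 genes read for the signalling of these receptors, 16 reached 50 CPM. With Mrgprd and with Mrgprb5, 8 were higher, namely the G protein subunits Gnaq, Gna14 and Gnao1, the phospholipase Plcb3, the protein kinases Prkca, Prkcd and Prkce and the arrestin Arrb1, and 2 were lower, Gnai1 and Plcb1. Gna14 was at 262 CPM with Mrgprd and 39.6 CPM without, Plcb3 at 343 and 53.8 CPM and Prkca at 712 and 71.5 CPM. Plcb3 stands on both this list and the non-peptidergic one.

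With Mrgpra1, 6 of the 16 were higher. With Mrgpra3, 5 were higher (Gna14, Gnao1, Plcb3, Prkca and Prkcd) and Plcb1 and Trpa1, the irritant channel, were lower. With Mrgprx1, Gna14 and Trpa1 were higher and Piezo2, the touch channel, was lower: Trpa1 was at 299 CPM against 114 CPM without, a sum that 6 of the 27 neurons carried, and its share after thinning was 18.5% against 17.4%. With Mrgpre, 0 of the 16 were called.

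**Figure D5:**
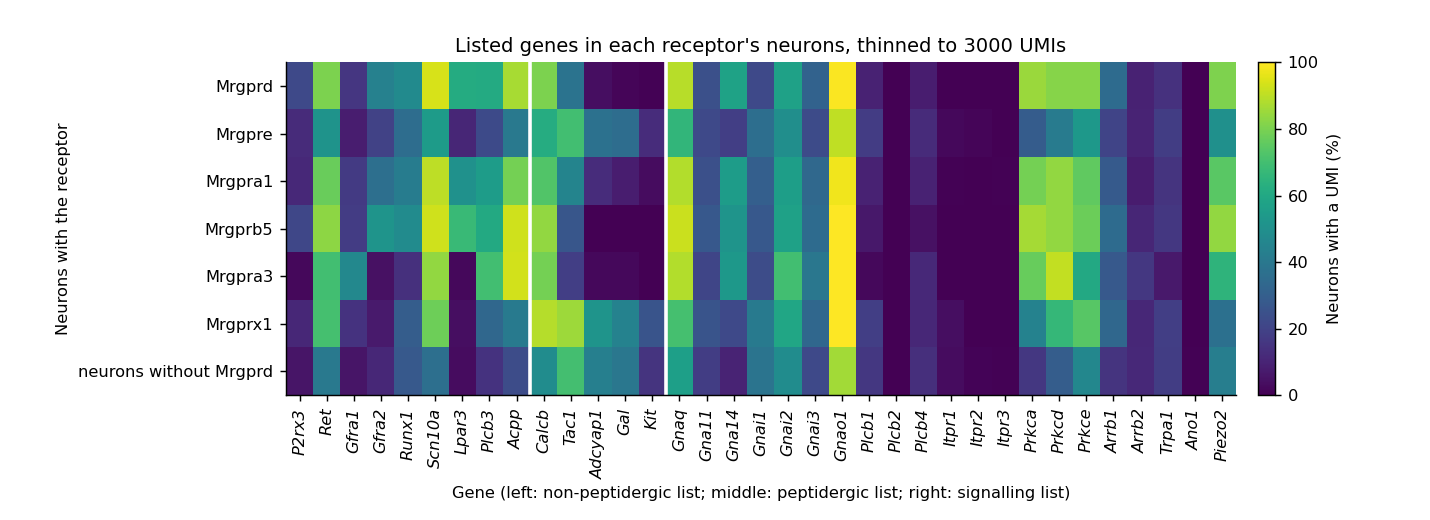
Share of neurons (percent, deep neurons thinned to 3000 UMIs) with a UMI of each listed gene (columns) among neurons with each receptor (rows). Neurons without Mrgprd are the last row, and receptors were read before thinning. Lpar3 reaches 61.5% in the Mrgprd row and 2.33% in the Mrgpra3 row, Tac1 reaches 85.2% in the Mrgprx1 row, and the Mrgpre row lies near the last row.

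Few genes on the other lists reached 50 CPM. Of the 10 itch genes Nmb, which encodes neuromedin B, did so, and it was higher with Mrgprd, Mrgprb5, Mrgpra1 and Mrgpra3. Trpm8, the cold channel and the 1 gene of the cold list at this level, was lower with every receptor but Mrgpre. It was seen in 0 of 338 deep Mrgprd neurons, which allows up to 0.888%, and in 30 of 230 Mrgpre neurons (13.0%), beside 12.9% of all deep neurons. The large-neuron genes Nefh, S100b, Scn1a and Thy1 were lower with every receptor but Mrgpre, as were Cd34, P2ry1 and Gm7271 of the low-threshold list. Fam19a4, the fourth gene of that list at this level, was called for Mrgprx1 alone, where it was lower; with Mrgprd its level was 80.8 CPM against 98.4 CPM, while its share after thinning was 17.8% against 14.2%.

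Of the lists for other cells, 2 glial genes and 1 pituitary gene reached 50 CPM. Mbp and the pituitary gene Gh were lower with all 6 receptors read, and their part in the ratios was not tested. Pmp22, the other glial gene, was called for none; it was at 794 CPM with Mrgprd and 786 CPM without. None of the erythroid or endothelial genes listed reached 50 CPM.

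3 genes, Otoa, Prkcq and Agtr1a, were listed here for possible subtypes of Mrgprd neurons. They stayed under 50 CPM over all deep neurons and are given by share. Within deep Mrgprd neurons they were at 97.5, 231 and 81.6 CPM. Otoa, which encodes otoancorin, was seen after thinning in 20.4% of deep Mrgprd neurons and 0.25% of the others, Prkcq, a protein kinase C, in 42% and 0.626%, and Agtr1a, an angiotensin receptor, in 21.3% and 0.25%. Prkcq was seen after thinning in 63.1% of the Mrgprd neurons with Mrgprb5 but no Mrgpra1, in 35.7% of those with Mrgpra1 but no Mrgprb5, in 35% of those with both and in 38.0% of those with neither. The level of Prkcq in these groups, in the same order, was 295, 188, 220 and 221 CPM. Without thinning, Prkcq was seen in 80% of the neurons with Mrgprb5 but no Mrgpra1 and in 80% of those with both. For Otoa the thinned shares lay closer, at 21.5%, 21.4%, 25% and 18.4%, as did those for Agtr1a, at 16.9%, 20%, 25% and 22.7%. Unthinned, Otoa was seen in 72.5% of the neurons with both receptors and in 31.9% of those with neither, whose median depths were 15109.5 and 5152 UMIs.

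Mrgpra1 was seen in 38 deep neurons without Mrgprd, and these were unlike the Mrgpra1 neurons with Mrgprd. Calca was at 7520 CPM in them, against 939 CPM in Mrgprd neurons with Mrgpra1 but no Mrgprb5, and Trpv1 was at 308 CPM against 71 CPM. Otoa was seen in 1 of the 38 and Prkcq in 0. In all deep neurons without Mrgprd, Calca was at 4598 CPM, Trpv1 at 181 CPM, and Otoa and Prkcq were seen in 0.626% and 1.56%. The scarcity of Otoa and Prkcq was thus shared with neurons without Mrgprd in general. The Calca level of all Mrgpra1 neurons given above thus joins values that lay far apart.

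Mrgpra3 neurons divided less sharply in Calca, at 2858 CPM with Mrgprd and 4367 CPM without. Otoa was seen in 9 of the 15 with Mrgprd and in 6 of the 28 without, at median depths of 9968 and 6488 UMIs. After thinning the Otoa shares were 40% and 7.14%, and those of Prkcq 26.7% and 0%. Osmr, a cytokine receptor subunit known in itch neurons, was seen in 23 of the 43 (53.5%) and was at 102 CPM against 14.3 CPM in neurons without Mrgpra3.

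Of the 27 deep Mrgprx1 neurons, 18 held neither Mrgpra1 nor Mrgprd. All 18 held Calca, at 13838 CPM, and 16 held Trpv1 (88.9%). Kit, a growth factor receptor, was seen in 9 of the 27 Mrgprx1 neurons, in 18.8% of deep neurons without Mrgprx1 and in 4 of the 338 Mrgprd neurons.

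Mrgpre was seen without any other receptor of the 7 in 174 deep neurons. Of these 114 held Scn11a (65.5%), 28 held Trpm8 (16.1%) and 0 held Otoa. In the 1345 deep neurons with none of the 7 receptors Trpm8 was seen in 16.4%, Otoa in 0.223% and Scn11a in 49.5%, and after thinning the shares with Scn11a were 42.5% and 35.1%.

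The genes whose pattern was most like each receptor were named by the phi coefficient, which measures how far 2 genes are seen in the same neurons, over 1936 neurons thinned to 3000 UMIs and 10515 genes. The neurons share 1 pooled sample, so the coefficients are descriptions. For Mrgprd the closest were Tmem233 (0.610), Lpar3 (0.593), Ly86 (0.589), Ctxn3 (0.582) and Prkcq (0.580). For Mrgprb5 and Mrgpra1 Mrgprd itself was closest, at 0.321 and 0.312. Ctxn3, Lpar3 and Nnat were among the next for Mrgprb5, and Nnat, Tmem233, Ly86 and Gna14 for Mrgpra1.

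The list for Mrgpra3 was different: Etv1, a transcription factor, came first (0.351, with 21 of 31 neurons), followed by 2610307P16Rik, Krt27, Lgi1 and Gfra1 between 0.241 and 0.215. For Mrgprx1 and Mrgpre no coefficient passed 0.142 and 0.0989, and in counts this sparse none is named.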

How the data were processed

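Trigeminal cells of 9 Dropseq runs were deposited by the authors as 1 merged table of raw UMI counts per gene and barcode, not normalized. Per the submitters' processing notes, bcl2fastq 2.17, STAR 2.5.3a, the build mm10 and Seurat 1.4.0.16 were used; how multi-mapping reads were counted is not given in the sources used here. Here the merged counts were read with Python 3.11.15, numpy 2.4.6, pandas 2.3.3 and scipy 1.17.1. 6 barcodes occurred a second time in the table and were kept apart. The neuron rule is not the study's own clustering. 306 neurons had barcodes ending in N. No doublet caller was run and no doublets were removed here, so barcodes holding more than 1 cell may remain. Neurons held 1000 to 55655 UMIs. Shares and levels were compared at all depths, in deep neurons and after thinning without replacement (seed 7); no test was possible with 1 pooled sample. The named genes were the listed members, every list by its counts, and the 5 genes closest by phi. Some listed genes and results that rest on them are not reported here. Levels were called past 2-fold at a mean of 50 CPM. Sequences are from RefSeq, GRCm38.p6, and transcript ends from GENCODE vM21, compared with BLAST 2.17.0. Counting was tested on simulated data. Members and lists were chosen with earlier results of these data known. Alternatives changed the neuron rule, the depth limit, the UMIs required, the thinning, the glial content and the fold rule.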

Additional observations from a re-analysis of the deposited data

How the results depend on the processing

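The 9 runs could not be told apart, so no library was left out and no spread between replicates was available. No paired analysis was possible because the neurons form 1 pooled sample. The Calca share with Mrgprd, above that without it at all depths (66.9% and 60%), was below it after thinning to 1000 UMIs (32.7% and 50.2%), as for Mrgprb5 (83.6% and 60.2%, then 37.3% and 48.2%) and Mrgpra1 (75.1% and 60.2%, then 41.1% and 48.2%). The cause of these and the following changes was not tested unless the setting itself removes neurons, UMIs or genes. The share of deep neurons with a receptor (30.5%) was 18.1% with 2 UMIs of the receptor required, 27.5% and 35.4% with depth limits of 2000 and 5000 UMIs, and 21.6% after thinning. At all depths (22.7%) it was 21.1% with 2 of the 6 neuronal genes, 24.4% with 900 to 7500 genes, 11.9% with 2 UMIs of the receptor, and 11.1% after thinning to 1000 UMIs. The share of these neurons with 2 or more receptors was 22.6% with 2 UMIs and 28.0% thinned in deep neurons (37.9%), and 18.3% and 11.7% at all depths (30.9%). Among deep Mrgprd neurons Calca (78.4%) was seen in 72.2% and 86.4% at limits of 2000 and 5000 UMIs; with receptor and marker both read after thinning, Calca was seen in 58.5%, Scn11a (98.8%) in 96.4% and Trpv1 (20.4%) in 8.73%. The Mrgprd level with Scn11a alone (128 CPM) was 158 and 92.1 CPM at these limits and 277 CPM without neurons holding Mbp, a setting chosen after seeing the data, and with Scn11a and Calca (293 CPM) it was 399.7 CPM without them. A planned setting on glial genes is not reported here.

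Counts of genes past the fold rule moved most. With 3-fold required, with at least 100 CPM, and with no filter on level, genes higher numbered 82, 116 and 1942 for Mrgprd (188), 58, 102 and 1556 for Mrgprb5 (163), 23, 69 and 1622 for Mrgpra1 (107), 32, 60 and 1607 for Mrgpra3 (113) and 3, 17 and 1439 for Mrgprx1 (37); for Mrgpre (0) there were 1349 with no filter and 7 with 2 UMIs of the receptor required. Genes lower numbered 166, 156 and 6721 for Mrgprd (306), 185, 149 and 7545 for Mrgprb5 (298), 69, 89 and 6309 for Mrgpra1 (173), 153, 142 and 8705 for Mrgpra3 (297), 81, 84 and 8968 for Mrgprx1 (196) and 9, 7 and 4155 for Mrgpre (14); with 2 UMIs required they were 274 for Mrgpra1 and 64 for Mrgpre. For Mrgprx1 that setting left under 20 neurons and gave no value.

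Of 176 pair counts under the alternatives, 127 stayed within 1.5 times the value given and 49 moved further; without neurons holding Mbp there were 268 deep Mrgprd neurons, 77 with Mrgprd and Mrgprb5 and 79 with Mrgprd and Mrgpra1.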
